A study of Mus musculus with 9 samples.

Results

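The 10 genes described here report receptor kinase and Ras-MAPK signalling, in mouse leukemias with and without Af10: the ERK phosphatase genes Dusp4, Dusp5 and Dusp6, the Sprouty genes Spry1, Spry2 and Spry4, the Sprouty-related genes Spred1 and Spred2, and the ETS factor genes Etv4 and Etv5. They were chosen by name, and every probe set whose only gene symbol in the platform annotation was one of them was taken. That gave 28 of the 45101 probe sets on the array for the 10 genes, of 18194 genes in all, and 0 probe sets named a member together with another gene. Expression was measured on 9 one-colour Affymetrix arrays, 1 for each RNA sample, from bone marrow cells used straight after harvest, on a C57/BL6 X 129 background. In the first group of 3 arrays (floxed), primary leukemias driven by the MLL-AF9 fusion and homozygous for the floxed Af10 allele (the gene Mllt10) had received the empty tdTomato vector MIT and had been passed to secondary recipient mice. In the second group of 3 (deleted), the same kind of leukemia had received MIT expressing Cre recombinase, so loss of Af10 and the presence of Cre cannot be told apart. Cells of both groups were sorted for tdTomato. The third group of 3 held primary leukemias that transduced Hoxa9 and Meis1 had produced, whose cells had no treatment before RNA preparation and whose Af10 genotype the labels do not give. Oncogene, transplant generation, vector and sorting therefore cannot be told apart in any comparison with that group. No age is given. Nor do the labels tell how many mice or primary leukemias stand behind the 3 arrays of a group, so the p-values cover only the differences among these RNA samples, some of which could be technical.

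Receptor tyrosine kinases such as Flt3 and Kit activate Ras, which starts the Raf, MEK and ERK kinase cascade that drives growth of blood progenitors. ERK switches on ETS and other transcription factors, and among the genes it induces are its own brakes: dual-specificity phosphatases that remove phosphate from ERK, and Sprouty and Spred proteins that act at or above Raf. Because these genes are induced by ERK and also restrain it, their transcripts are read as an output of the pathway and are not a measure of ERK activity itself, which was not measured here.

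Values are log2(intensity + 1), and a gene stands for its brightest probe set, by the mean of all 9 arrays, unless said otherwise. Differences, their standard errors (SE) and adjusted p-values come from limma fitted across all genes, and a gene was called at an adjusted p under 0.05. Counts of genes under an unadjusted p of 0.05 are given without the share of all genes under it. They therefore show no excess in any list. Errors after ± are SD (n = 3). The array medians lay between 146 and 156 on the linear scale. Probe sets for Y-linked genes (9 for Uty, Kdm5d and Eif2s3y) gave 2.97 to 4.71 on every array while Xist gave at least 12.75, and this range is used as the background level. It rests on those 9 probe sets, and others may have a higher floor. The erythroid genes Hba-a1 and Slc4a1 were flat over the arrays, at 6.10 to 6.42 and 6.42 to 6.63. In deleted leukemias Dusp4, Spry1, Spry4 and Spred1 had similar means, 6.11, 5.89, 6.28 and 5.89. A value above the range therefore need not mean expression. The targeted gene Mllt10 was at 11.20, 10.49 and 11.18 in floxed replicates 4, 5 and 6, at 9.93, 9.89 and 10.19 in deleted replicates 4, 5 and 6, and so fell by 0.95 (limma adjusted p = 0.0293) with no overlap. Floxed replicate 5 had the widest gap between the 3' and 5' Gapdh control probe sets, 1.03, against 0.44 to 0.81 on the other arrays. The chromosome with the largest shift of a single array, chromosome 1 in deleted replicate 6 (median 0.13), holds no member, and on the members' chromosomes such medians ran from -0.07 to 0.05.

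Comparison of deleted with floxed leukemias asks whether these feedback and output genes differ after Cre deletion in an established MLL-AF9 leukemia. One member changed: Spred1 fell 5.48-fold. The other 9 did not pass, with differences between -0.65 (Dusp5) and 0.29 (Dusp6). Of all genes tested 6.85% were called, 3.63% lower and 3.22% higher, so 1 fall among 10 members is a count of a single gene. The 3 values of each group did not overlap for Spred1 and Spry1, both lower, against 10.7% of all genes lower and 15.1% higher. The median difference of the members was -0.28, and that of all genes was 0.06.

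**Figure D1:**
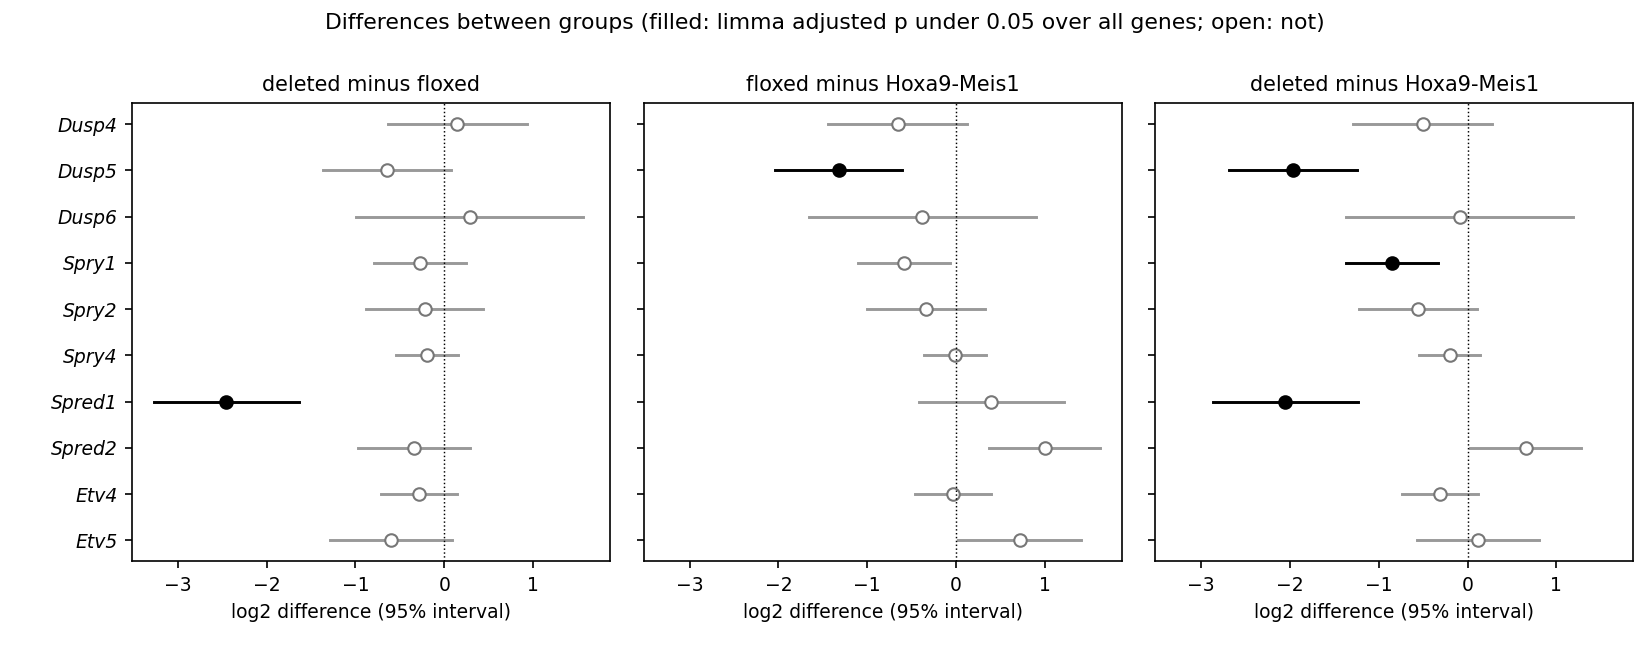
Log2 differences of the 10 genes in the 3 comparisons, with 95% intervals as bars; filled points passed limma's test at an adjusted p under 0.05 over all genes and open points did not. Spred1 is the only filled point for deleted minus floxed, at -2.45, and Dusp5 and Spred1 stand lowest for deleted minus Hoxa9-Meis1, at -1.97 and -2.05.

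Spred1 encodes a membrane-bound inhibitor that brings the Ras GTPase-activating protein neurofibromin to Ras. It was at 8.34, 9.12 and 7.57 in floxed replicates 4, 5 and 6, at 5.99, 5.94 and 5.74 in deleted replicates 4, 5 and 6, and at 7.65, 7.69 and 8.49 in Hoxa9-Meis1 replicates 1, 2 and 3. All 3 deleted arrays lay below all 6 others, while the floxed and Hoxa9-Meis1 arrays overlapped. The difference between deleted and floxed leukemias was -2.45 (SE 0.36, 95% interval -3.27 to -1.64, limma adjusted p = 0.00500), and between deleted and Hoxa9-Meis1 leukemias -2.05 (SE 0.36, 4.15-fold lower, limma adjusted p = 0.00604). Floxed and Hoxa9-Meis1 leukemias differed by 0.40 (interval -0.42 to 1.22, limma adjusted p = 0.563). These comparisons share arrays, so the deleted group enters both of the lower values. In bulk samples, fewer cells with the transcript and less transcript per cell cannot be told apart.

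Of the 8 Spred1 probe sets 7 fell after deletion, with differences of -3.11 to -1.37 and limma adjusted p between 0.00607 and 0.0338 in a fit over all probe sets, of which 3.76% were called lower and 2.4% higher. The same 7 were called lower in deleted than in Hoxa9-Meis1 leukemias, by differences of -3.34 to -1.98, where 7.82% of all probe sets were lower and 7.19% higher. Between floxed and Hoxa9-Meis1 leukemias 0 of the 8 were called in limma, the smallest unadjusted p being 0.0740. The eighth, 1443652_x_at, lay at 3.74 to 4.41 on all 9 arrays, within the background range, so it says little about the gene. Probe sets 1460116_s_at and 1452911_at fell furthest and were at 4.16 and 4.03 on average in deleted leukemias, also within that range, so their 8.61-fold and 8.53-fold falls may be understated. The probe sets differed in level but shared 1 pattern: floxed replicate 5 was the highest and replicate 6 the lowest of the floxed arrays at each of the 7.

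**Figure D2:**
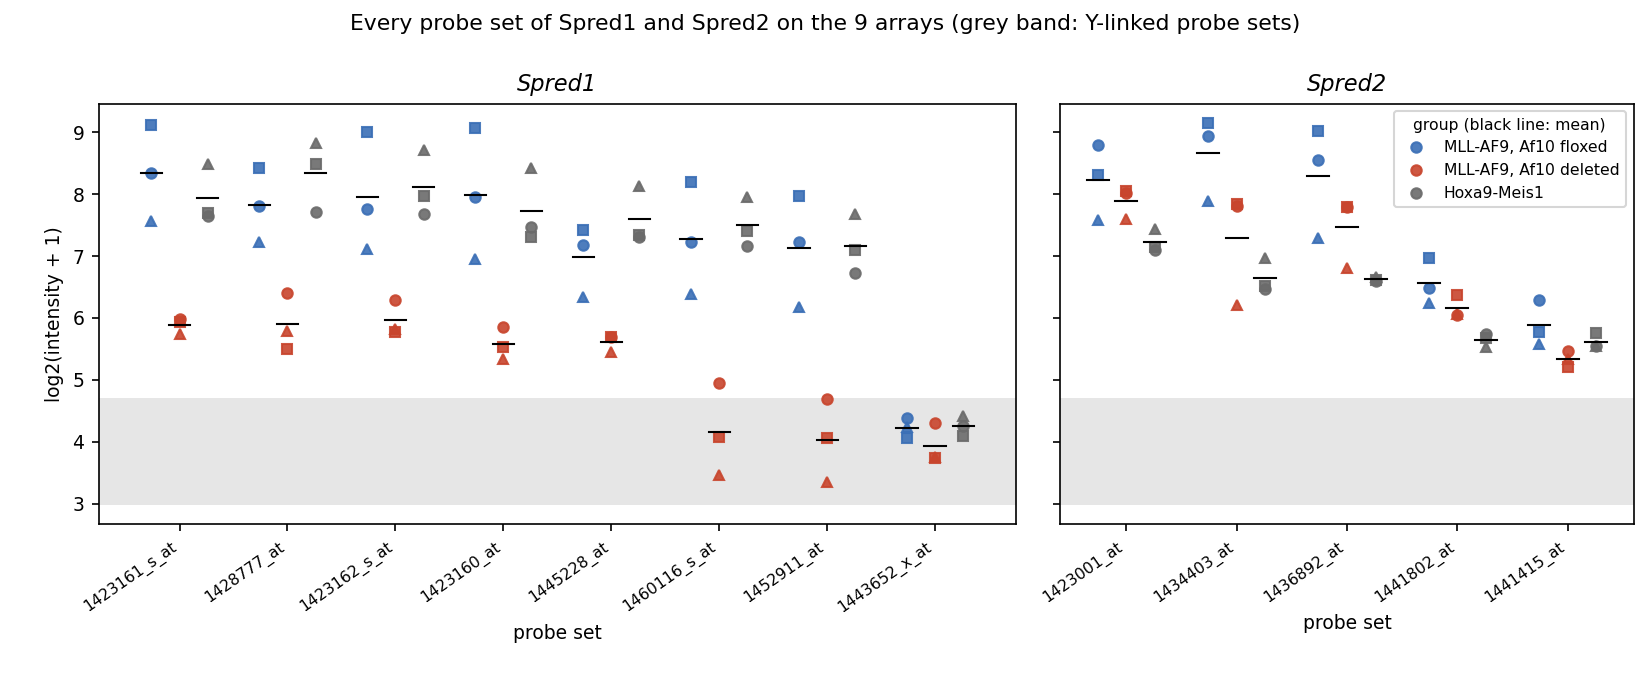
Every probe set of Spred1 (8) and Spred2 (5), as log2(intensity + 1) on each array; colours are groups, circles, squares and triangles are replicates 4, 5 and 6 (MLL-AF9) or 1, 2 and 3 (Hoxa9-Meis1), and black lines are group means. At 7 Spred1 probe sets the deleted arrays lie below all others, while at Spred2 the order runs from floxed through deleted to Hoxa9-Meis1 for the 4 brightest.

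The Spred1 call held under all 17 alternatives that tested it, where its difference was -2.84 to -1.99 and its limma adjusted p at most 0.0376. Without floxed replicate 5 alone, the array with the widest Gapdh gap, it was -2.07. The genes most like Spred1 in pattern were Itgb7, an integrin gene, Zfp516, a zinc finger gene, and Cds1, a phospholipid synthesis gene, among 9824 genes compared. Their values, centred on each gene's mean, departed from those of Spred1 by a mean of 0.29, 0.30 and 0.31 over the 9 arrays. After deletion they fell by 2.44, 2.13 and 2.15, falls that follow from picking them by that closeness.

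Markers of T and NK cells moved with the deletion: 2 of 7 measured, Cd3e and Klrd1, were called higher in deleted leukemias. Of all genes 3.22% were, and all 7 markers lay above 0. On floxed arrays Klrd1 was at 3.92 to 4.48, within the background range. The log2 of the summed intensity of that list was 9.54 to 9.64 on deleted arrays and 8.87 to 9.10 on floxed ones. The list of stromal and endothelial markers had 1 call of 10, the fall of Pecam1, which leukemia cells can also express, and its sum was 10.24 to 10.85 against 11.08 to 11.46. The other 9 markers of that list had means from 5.27 (Tie1) to 8.45 (Pdgfrb) in deleted and from 5.45 (Tie1) to 8.79 (Pdgfrb) in floxed leukemias, with Col1a1 at 7.68 and 7.08. Of 6 B cell markers 1 was called, Cd79b, which fell by 0.75, and 5 had an unadjusted p under 0.05 in limma, 3 above 0 and 2 below. The summed level of the B cell list was 10.35 to 10.51 on deleted and 11.004 to 11.73 on floxed arrays, without overlap. Its brightest marker in floxed leukemias, Vpreb1, had a mean of 10.25 there and 7.84 in deleted ones (-2.41), and was not called. The list did not fall as a whole: 4 of the 6 markers lay above 0. Its mean log2 overlapped, at 7.29 to 7.43 on deleted and 7.37 to 7.80 on floxed arrays. The mean of the 10 myeloid markers measured, which match the labelled tissue, was 12.51 to 12.60 on deleted and 11.77 to 12.33 on floxed arrays. In limma 0 of the 10 were called between these groups, but 9 lay above 0 (median 0.39), and Csf3r (1.09), Cebpa (0.90) and Spi1 (0.77) were higher in deleted leukemias without overlap, each with an unadjusted p under 0.05. In limma 0 of 5 erythroid and 0 of 4 megakaryocyte markers were called, and 0 had an unadjusted p under 0.05. Of 6 markers of mast cells, basophils and eosinophils 0 were called between these groups. Cpa3 fell by 1.97 without overlap (limma unadjusted p = 0.0326, adjusted p = 0.180), and the other 5 lay above 0. The part of these lists in the Spred1 result was not tested.

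Spred2 encodes a second Ras inhibitor of the same family. It was at 8.79, 8.31 and 7.58 in floxed replicates 4, 5 and 6, at 8.02, 8.05 and 7.59 in deleted replicates 4, 5 and 6 and at 7.10, 7.14 and 7.44 in Hoxa9-Meis1 replicates 1, 2 and 3. At this brightest probe set every MLL-AF9 array, with or without Af10, lay above every Hoxa9-Meis1 array. After deletion the difference was -0.34 (interval -0.97 to 0.29, limma adjusted p = 0.518). Floxed exceeded Hoxa9-Meis1 leukemias by 0.999 (SE 0.28), which did not pass for this probe set (limma adjusted p = 0.0574). In the fit over all probe sets 3 of the 5 Spred2 probe sets were called higher in floxed leukemias (4.94% of all probe sets were, and 4.07% lower), 1434403_at by 2.01, 1436892_at by 1.66 and 1441802_at by 0.92, with limma adjusted p of 0.0299, 0.0405 and 0.0184. The mean of the 5 probe sets passed too (1.17, limma adjusted p = 0.0233), as did the represented one without floxed replicate 6 (1.32, limma adjusted p = 0.0108). Between deleted and floxed leukemias all 5 lay below 0, from -1.38 to -0.34, and 0 of 5 were called in limma, while 2 had an unadjusted p under 0.05. Between deleted and Hoxa9-Meis1 leukemias 0 of 5 were called as well, again with 2 under that unadjusted p. At 1434403_at deleted replicate 6, at 6.21, lay below the Hoxa9-Meis1 arrays (6.47 to 6.97). All deleted arrays did so at 1441415_at, at 5.21 to 5.46 against 5.54 to 5.75.

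Comparison of floxed MLL-AF9 with Hoxa9-Meis1 leukemias shows how the same genes differ between these leukemia models. One member, Dusp5, was called lower in floxed leukemias, against 3.31% of all genes, and 0 were called higher, against 5.58% (8.89% in either direction), where 4 of the 10 members had an unadjusted p under 0.05 in limma. The groups did not overlap for Dusp5 (lower, as for 12.1% of all genes) and Spred2 (higher, as for 15.4%). In the comparison of deleted with Hoxa9-Meis1 leukemias 3 members were called lower, Dusp5, Spry1 and Spred1, against 6.23% of all genes, and 0 higher, against 9.27% (15.5% in either direction), with 4 of the 10 under an unadjusted p of 0.05. There the groups did not overlap for 4 lower members, those 3 and Spry4, against 13.2% of all genes, and for 1 higher, Spred2, against 21.7%. The median differences of the members were -0.18 and -0.41, beside -0.01 and 0.05 for all genes. Both comparisons share the Hoxa9-Meis1 arrays. The counts of 4 of 10 under an unadjusted p of 0.05 have no share of all genes beside them. Many genes lay under it: in limma the B cell marker Ebf1, at 0.0457 for floxed minus Hoxa9-Meis1, had an adjusted p of 0.198. For deleted minus Hoxa9-Meis1 the pathway gene Ptpn11, at 0.0469, had a limma adjusted p of 0.167. These counts are therefore not read as an excess of members.

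**Figure D3:**
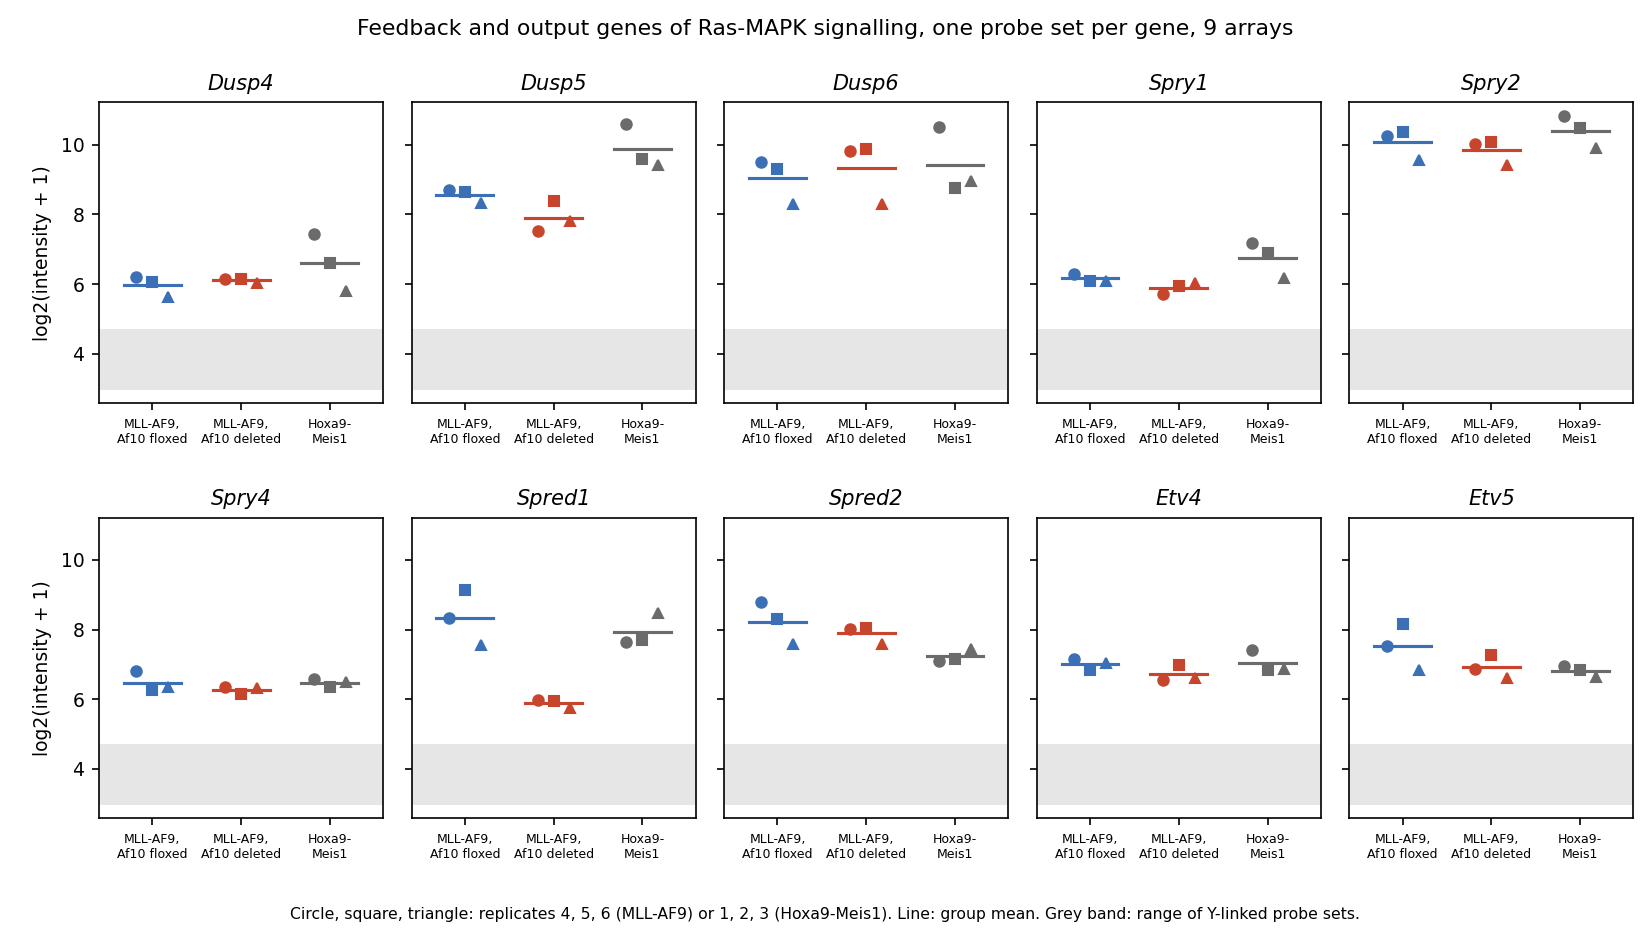
The 10 genes on each of the 9 arrays as log2(intensity + 1), 1 probe set per gene; points are arrays, lines are group means, and the grey band is the background level, 2.97 to 4.71. Spred1 is low on all 3 deleted arrays, Dusp5 is highest on the 3 Hoxa9-Meis1 arrays, and Dusp6 and Spry2 spread as widely within groups as between them.

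Dusp5 encodes a nuclear phosphatase specific to ERK. It was at 10.60, 9.59 and 9.42 in Hoxa9-Meis1 replicates 1, 2 and 3, at 8.71, 8.63 and 8.31 in floxed replicates 4, 5 and 6 and at 7.52, 8.38 and 7.81 in deleted replicates 4, 5 and 6. All 6 MLL-AF9 arrays lay below all 3 Hoxa9-Meis1 arrays. Deleted leukemias were lower by 1.97 (SE 0.32, 3.92-fold, limma adjusted p = 0.00401), and this call held under all 17 alternatives, with a difference of at least 1.61 in size. Floxed leukemias were lower by 1.32 (SE 0.32, 2.50-fold, limma adjusted p = 0.0341), a call that ended without any 1 of floxed replicates 4, 5 and 6 or Hoxa9-Meis1 replicates 1 and 2 (limma adjusted p = 0.0624, 0.0833, 0.0909, 0.0812 and 0.0633) and with only these groups in the fit (0.0533). Between deleted and floxed leukemias the difference was -0.65 (interval -1.37 to 0.07) and did not pass (limma adjusted p = 0.274). Dusp5 has 1 probe set on the array.

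Dusp6 encodes the cytoplasmic ERK phosphatase that is a common readout of the pathway. It was at 9.80, 9.86 and 8.30 in deleted replicates 4, 5 and 6, at 9.51, 9.30 and 8.29 in floxed replicates 4, 5 and 6 and at 10.52, 8.76 and 8.95 in Hoxa9-Meis1 replicates 1, 2 and 3. Within every group 1 array stood apart from the other two, replicate 6 low in both MLL-AF9 groups and replicate 1 high in Hoxa9-Meis1. The group means, 9.32 ± 0.89, 9.03 ± 0.65 and 9.41 ± 0.96, differed by less than that spread. For deleted minus floxed the interval was wide, -0.99 to 1.57 (SE 0.57), so a change of a size within it remains possible. Dusp4, another nuclear ERK phosphatase gene, was at 6.14, 6.14 and 6.03 in deleted, 6.19, 6.06 and 5.62 in floxed and 7.44, 6.59 and 5.80 in Hoxa9-Meis1 leukemias. The groups overlapped, with Hoxa9-Meis1 replicate 1 highest and floxed replicate 6 lowest. Without Hoxa9-Meis1 replicate 3, the dimmest of its group, the floxed leukemias were lower by 1.06 (limma adjusted p = 0.0393), and with it by 0.65 (limma adjusted p = 0.299).

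RefSeq promoter sequences (assembly GRCm38.p6) were matched by symbol for 7 of the 10 members. Spred1 fell after deletion, Dusp5 was lower in MLL-AF9 leukemias, and Spred2 had probe sets called higher in floxed than in Hoxa9-Meis1 leukemias. For these 3 genes, on which the comparisons turn, the 250 bases before the annotated start are shown. They are written 5' to 3' on the gene's strand, and capitals mark matches to any of 4 motifs on either strand: the ETS motif GGAAGT, the cyclic AMP response element TGACGTCA, the AP-1 motif TGANTCA and the CArG box, the site of serum response factor, which ERK-activated ETS partners use.
Spred1 (chr2:117120821-117121070, plus strand): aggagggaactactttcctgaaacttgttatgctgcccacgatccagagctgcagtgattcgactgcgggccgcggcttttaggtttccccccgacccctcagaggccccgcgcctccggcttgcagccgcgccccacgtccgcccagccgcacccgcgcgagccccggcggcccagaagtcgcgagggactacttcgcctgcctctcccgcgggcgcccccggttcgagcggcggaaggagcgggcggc
Dusp5 (chr19:53528895-53529144, plus strand): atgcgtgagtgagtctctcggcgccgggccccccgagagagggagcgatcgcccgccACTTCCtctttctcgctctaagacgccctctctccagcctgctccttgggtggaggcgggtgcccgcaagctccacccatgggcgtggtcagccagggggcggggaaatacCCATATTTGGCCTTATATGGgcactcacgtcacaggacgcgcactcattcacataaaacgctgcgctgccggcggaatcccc
Spred2 (chr11:19924192-19924441, plus strand): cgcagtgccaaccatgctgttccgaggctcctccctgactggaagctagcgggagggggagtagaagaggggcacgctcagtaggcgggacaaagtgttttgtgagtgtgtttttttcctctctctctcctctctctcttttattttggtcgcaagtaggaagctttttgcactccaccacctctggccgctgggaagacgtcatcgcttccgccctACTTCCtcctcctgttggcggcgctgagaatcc
Spred1 holds none of the 4 motifs in this window. Dusp5 holds 1 ETS match, 193 to 188 bases before the start on the opposite strand, and 2 adjoining CArG boxes, 82 to 73 and 72 to 63 bases before it, which read as such on both strands. Spred2 holds 1 ETS match, 33 to 28 bases before the start, also on the opposite strand. Of the other matched members, 1 of the 2 Etv5 promoters held an ETS match, and Dusp6, Spry1 and Spry2 held none of the 4 motifs. Among 32851 promoter windows of the same length, 19.7% hold the ETS motif, 1.47% a CArG box, 1.55% the cyclic AMP response element and 6.75% the AP-1 motif. These matches describe letters and not binding.

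The Sprouty proteins restrain signalling between receptor kinases and Ras or Raf. Spry1 was at 5.72, 5.93 and 6.02 in deleted, 6.29, 6.10 and 6.09 in floxed and 7.18, 6.88 and 6.17 in Hoxa9-Meis1 leukemias. Every deleted array lay below every array of both other groups, by little against floxed replicate 6. Deleted were lower than Hoxa9-Meis1 leukemias by 0.85 (SE 0.23, 1.80-fold, limma adjusted p = 0.0370), but this ended without any 1 of the deleted arrays or Hoxa9-Meis1 replicates 1 and 2 (limma adjusted p up to 0.120), with a pseudocount of 32 (0.0519) or with only these groups in the fit (0.0712). Floxed minus Hoxa9-Meis1 was -0.58 (limma adjusted p = 0.160) and passed without Hoxa9-Meis1 replicate 3 (-0.87, limma adjusted p = 0.0119) or with array weights (-0.72, 0.0448). Deleted minus floxed was -0.27 (limma adjusted p = 0.541).

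Spry2 was bright in all 3 groups, at 10.03, 10.08 and 9.41 in deleted, 10.26, 10.36 and 9.57 in floxed and 10.82, 10.46 and 9.91 in Hoxa9-Meis1 leukemias. The groups overlapped, and the means of 9.84 ± 0.38, 10.06 ± 0.43 and 10.40 ± 0.46 lay within 0.56 of each other. Its other probe set differed by 0.0048 after deletion and was lower than in Hoxa9-Meis1 leukemias by 0.73 in both floxed and deleted ones, which did not pass (limma adjusted p = 0.170 and 0.142). Spry4 was at 6.34, 6.16 and 6.32 in deleted, 6.80, 6.26 and 6.34 in floxed and 6.58, 6.35 and 6.50 in Hoxa9-Meis1 leukemias. The last group lay just above the deleted one, without overlap, while floxed arrays overlapped both. Of its 4 probe sets 0 were called in any comparison in limma, with 0 under an unadjusted p of 0.05, and 1, 1445669_at, was at the background level on all arrays (2.66 to 3.39). The interval for the represented probe set, -0.54 to 0.15 for deleted minus floxed, was the narrowest of the 10 members.

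Etv4 and Etv5 encode ETS activators of the PEA3 group, which are induced by ERK. Etv4 was at 6.56, 6.99 and 6.62 in deleted, 7.15, 6.83 and 7.05 in floxed and 7.42, 6.83 and 6.86 in Hoxa9-Meis1 leukemias, and its groups overlapped in every comparison. Etv5 was at 6.87, 7.28 and 6.61 in deleted, 7.54, 8.17 and 6.85 in floxed and 6.94, 6.83 and 6.63 in Hoxa9-Meis1 leukemias. Floxed replicates 4 and 5 were the highest arrays, and replicate 6 lay among the others. Floxed minus Hoxa9-Meis1 was 0.72 (SE 0.30, limma adjusted p = 0.190), and without floxed replicate 6 it was 1.05 (limma adjusted p = 0.0415).

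The 3 Etv5 probe sets lay on the same side in each comparison but differed in size, from 0.69 to 2.45 for floxed minus Hoxa9-Meis1. For 1420998_at floxed exceeded Hoxa9-Meis1 leukemias by 0.69 (limma adjusted p = 0.0279 over all probe sets). Probe set 1428142_at had the widest spread among floxed arrays of the 28 (SD 2.08), at 7.85, 8.40 and 4.55 in floxed replicates 4, 5 and 6, 7.20, 6.61 and 5.52 in deleted replicates 4, 5 and 6, and 4.68, 4.01 and 4.76 in Hoxa9-Meis1 replicates 1, 2 and 3. Floxed replicate 6 was thus within the background range and among the Hoxa9-Meis1 arrays, of which replicate 3 lay just above that range, while the other floxed arrays were the highest of the 9. That difference of 2.45 between groups did not pass (SE 0.88, limma adjusted p = 0.128).

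Several members moved together from array to array within a group. Floxed replicate 6 was the lowest of its group for 8 of the 10 members, where 25.6% of all genes had it lowest, and Hoxa9-Meis1 replicate 1 was the highest for 8 of 10, where 34.3% of all genes had it highest. Deleted replicate 6 was the lowest for 6 of 10 (34.9% of all genes) and floxed replicate 4 the highest for 7 of 10 (39.1%). The members' median deviation from the group mean was -0.41 on floxed replicate 6 and 0.40 on Hoxa9-Meis1 replicate 1. Without both deleted replicate 6 and floxed replicate 6, Spred1 differed by -2.77 between deleted and floxed leukemias (limma adjusted p = 0.00779), and 0 other members passed, as with all arrays.

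Of 100 other genes of the pathway that were listed by role, 89 were measured. After deletion 6 of the 89 fell and 1 rose, where 3.63% and 3.22% of all genes did, with a median of 0.06, as for all genes. Among 19 receptor kinase genes Flt3 fell by 4.56 (23.6-fold, limma adjusted p = 3.43e-05) and Kit by 0.96 (limma adjusted p = 0.0414). The Kit call rests on 1 of its 2 probe sets and ended without any 1 of the 6 arrays. Among 15 adaptors and Ras activators Shc1, which links receptors to Grb2, rose by 1.05 (SE 0.14, limma adjusted p = 0.00308) at both of its probe sets, from 10.18, 9.87 and 10.29 to 11.16, 11.002 and 11.33. Floxed and deleted arrays did not overlap for it.

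Among 13 Ras proteins and their GTPase-activating proteins, Rras2, a Ras relative that signals in blood cells, fell by 2.76 (SE 0.40, limma adjusted p = 0.00479) by 1 of 2 probe sets. It was at 6.44, 8.30 and 6.77 in floxed replicates 4, 5 and 6, at 4.34 to 4.52 in deleted and at 4.08 to 4.55 in Hoxa9-Meis1 leukemias. The latter groups lay within the background range, so its fall may be understated. Rasa4, a GTPase-activating protein gene, fell by 1.48 (limma adjusted p = 0.00363), by 1 of its 2 probe sets. With a pseudocount of 32 Rras2 fell by 1.77, and with the mean of both probe sets Rasa4 fell by 0.83, and these calls still passed. Of 12 genes for Raf, MEK, scaffolds and ERK-activated kinases 0 were called in any of the 3 comparisons in limma, where 2, 2 and 3 had an unadjusted p under 0.05. In limma 0 of 11 other dual-specificity phosphatase and Sprouty or Spred genes were called after deletion either (1 with an unadjusted p under 0.05).

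Of 19 other ERK output genes, Hmga2, which encodes a chromatin protein, fell by 4.07 (SE 0.88, limma adjusted p = 0.0278) and the cyclin gene Ccnd1 by 1.27 (SE 0.30, limma adjusted p = 0.0387). Each did so by a single probe set, of 4 for Hmga2 and 3 for Ccnd1. The Hmga2 call ended without floxed replicate 4, 5 or 6, with the mean of its probe sets (-0.77) and with only these groups in the fit (limma adjusted p = 0.0522). In deleted replicates 4, 5 and 6 Hmga2 was at 4.498, 8.26 and 7.45, so replicate 4 alone was within the background range. The Ccnd1 call ended without any 1 array but floxed replicate 6. The median difference of these 19 genes was 0.19, with 13 above 0, from 0.13 (Egr3) to 2.52 (Fosb), and 9 of the 19 had an unadjusted p under 0.05. Egr3 is named only as the end of that range. Fosb, an immediate early gene, was at 10.56, 7.65 and 8.34 in floxed and 11.99, 11.34 and 10.77 in deleted leukemias and did not pass (2.52, SE 0.65, limma adjusted p = 0.0533).

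**Figure D4:**
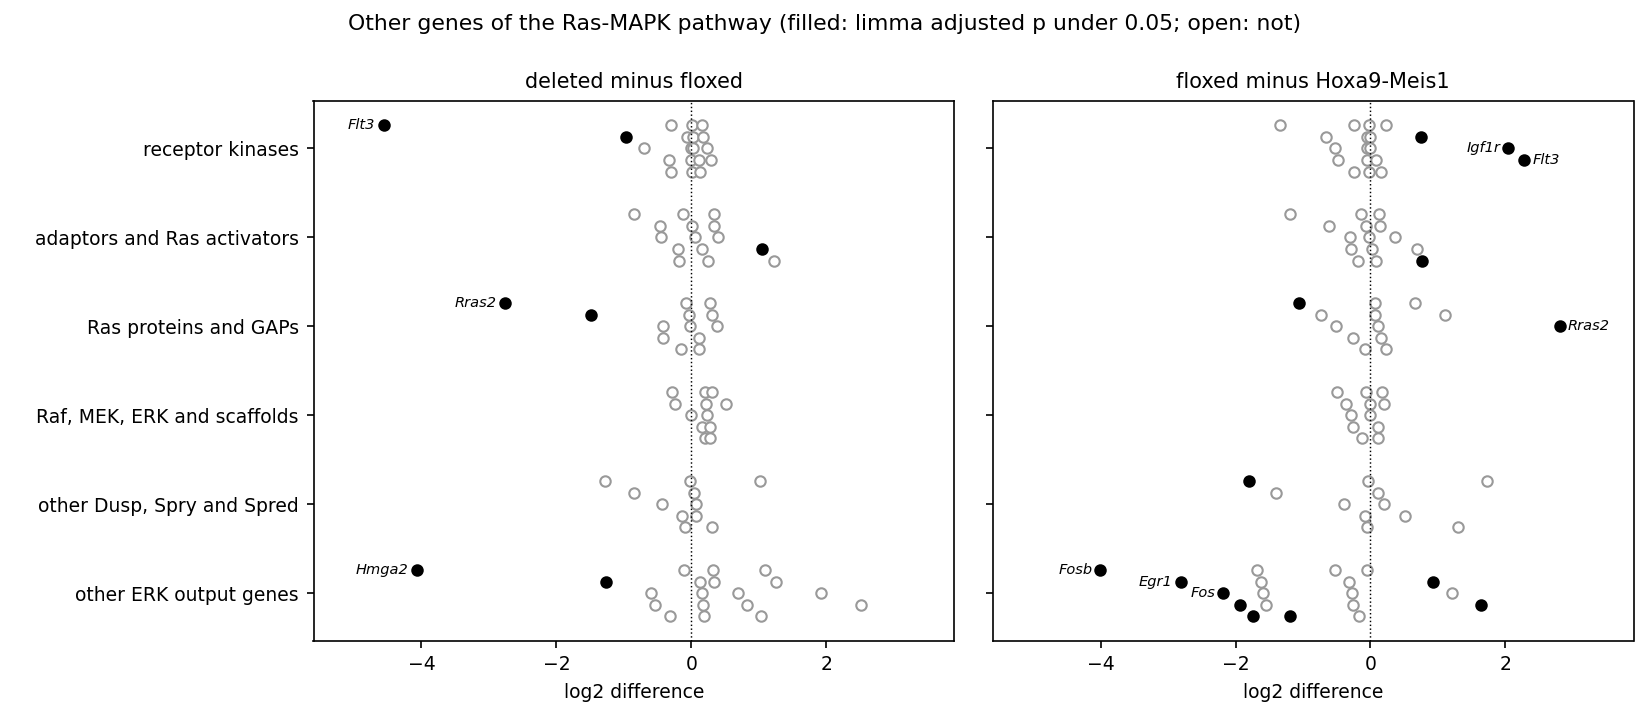
Log2 differences of the 89 other pathway genes by role, for deleted minus floxed and floxed minus Hoxa9-Meis1; filled points passed limma's test at an adjusted p under 0.05 over all genes, and called genes more than 2 from 0 are named. Flt3 and Hmga2 lie furthest left in the first panel, at -4.56 and -4.07, and immediate early genes in the second, with Fosb at -4.002.

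Between floxed and Hoxa9-Meis1 leukemias 7 of the 89 were called higher (5.58% of all genes) and 8 lower (3.31%), with 6 of the lower ones among the ERK output genes. Fosb was lower by 4.002 (limma adjusted p = 0.00733), Egr1 by 2.81 (0.0181) and Fos by 2.18 (0.0124), and the median of those 19 genes was -1.20. The calls of Egr1 and Fos ended without Hoxa9-Meis1 replicate 1 (limma adjusted p up to 0.0678 over the alternatives), and that of Egr1 also without floxed replicate 5. Fosb was lowest on floxed replicate 5, the array with the widest Gapdh gap, and its call held without any 1 array. Dusp1, itself an immediate early phosphatase gene, was lower by 1.80 in floxed leukemias (limma adjusted p = 0.0154), and not without floxed replicate 5 or Hoxa9-Meis1 replicate 1. Ccnd1 and Epha2 were the 2 output genes called higher, by 1.65 and 0.92, Epha2 being named after its value was seen.

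The receptor genes Flt3, Igf1r and Erbb3 were higher in floxed than in Hoxa9-Meis1 leukemias by 2.28, 2.04 and 0.74, and Ptpn11, for the phosphatase SHP2 that passes receptor signals to Ras, by 0.77. The Ptpn11 call ended without Hoxa9-Meis1 replicate 1 or 2, and the Erbb3 call with the mean of its probe sets (limma adjusted p = 0.0509). Rras2 was higher by 2.81, and Mras, another Ras relative, was lower by 1.06, a call that ended without any 1 array but Hoxa9-Meis1 replicate 3. In deleted against Hoxa9-Meis1 leukemias 4 of 89 were higher (9.27% of all genes) and 9 lower (6.23%). Igf1r was higher by 2.18, while Flt3, Rasa4 and Kit were lower by 2.28, 1.99 and 1.21 and Dusp10, a phosphatase gene for stress kinases, by 0.53. With the mean of its probe sets Rasa4 was lower by 1.20. The other named calls there each ended without any 1 of 3 to 5 of the 6 arrays compared, Hoxa9-Meis1 replicate 1 in every case: Rasgrp4, a Ras activator gene, was higher by 1.59, and Maff, Cblb, Rasal3, Gab2 and Egr1 were lower by 1.85, 1.31, 1.15, 1.02 and 2.49. With the mean of its probe sets Cblb differed by -0.24 (limma adjusted p = 0.686). Of 6 markers of mast cells, basophils and eosinophils 3 (Cpa3, Fcer1a and Ms4a2) were called lower in floxed than in Hoxa9-Meis1 leukemias. Among all genes 3.31% were. The others were not called: Mcpt8 differed by -1.17, and the eosinophil genes Prg2 and Epx lay above 0, by 0.72 and 0.10. The log2 of the summed intensity of all 6 was 11.37 to 13.61 in Hoxa9-Meis1 leukemias, where Cpa3 was the brightest (mean 11.75). It was 10.31 to 11.21 in floxed and 10.07 to 11.004 in deleted leukemias, so that both MLL-AF9 groups lay below Hoxa9-Meis1. The myeloid markers Cebpa and Csf3r were also called lower in floxed than in Hoxa9-Meis1 leukemias, by 1.13 and 1.27, and the B cell marker Cd79b higher, by 0.45. In deleted against Hoxa9-Meis1 leukemias 2 mast cell markers and Pecam1 were called lower, and 3 of 7 T and NK cell markers, Cd79a, the erythroid marker Klf1 and Cdh5 higher. The part of these markers in the differences of Dusp5 and the output genes was not tested.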

How the data were processed

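Each sample gave 100 ng of total RNA, which was turned into biotin-labelled cRNA and hybridised to 1 array, per the labels' protocols. The deposited table holds intensity values that the authors made with RMA (background correction, quantile normalization and median polish), per the submitters' processing notes; neither its version nor the chip definition is given in the sources used here. The values run from 4.6 to 32082 and so are linear, and log2(value + 1) was taken, which understates changes of dim probe sets. Quantile normalization would remove a change of most genes in 1 direction. Arrays have no sequencing depth, and their number limits the precision.

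Of 45101 probe sets 34958 had 1 symbol, 932 several and 9211 none. Of the first, 34754 matched a RefSeq gene table by gene ID. Each of 18194 genes was represented by its single-symbol probe set with the highest mean over the 9 arrays. One model with a mean per group took in all 9 arrays (limma 3.58.1, R 4.3.3, functions lmFit and eBayes), two-sided, with Benjamini-Hochberg adjustment over all genes; a second fit covered all probe sets. The fit was tested on simulated data with independent normal noise, which real arrays need not have. It recovered 65 to 69% of true log2 changes of 1 and 93 to 96% of changes of 2. False calls were 11 of 171, 13 of 178 and 8 of 168 for deleted minus floxed, floxed minus Hoxa9-Meis1 and deleted minus Hoxa9-Meis1. A gene that did not pass may therefore still differ. The closest 2 arrays differed by a mean of 0.20 (log2), so none was a duplicate.

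The members and gene lists were chosen with earlier results of these data known, so counts over lists carry no test. Text names all members and, in each pathway list, up to 3 called genes with the largest differences per comparison; other names are said to be chosen later, except markers. Likeness was the mean absolute difference of gene-centred values, among genes whose highest group mean exceeded the median of all genes. Alternatives covered probe set choice, a filter on dim genes, pseudocount, normalization, centring, array weights, variance prior, the groups in the fit, the replicate number and arrays left out.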

Additional observations from a re-analysis of the deposited data

How the results depend on the processing

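The fall of Spred1 after deletion and the lower Spred1 and Dusp5 in deleted than in Hoxa9-Meis1 leukemias kept their direction and passed under every alternative that tested them. A filter that kept only genes at or above the median level left Dusp4, Spry1, Spry4, Spred1, Spred2, Etv4 and Etv5 untested. Lower members then numbered 0 for deleted minus floxed and 1 for deleted minus Hoxa9-Meis1. With all arrays 1246, 1618 and 2821 genes were called for deleted minus floxed, floxed minus Hoxa9-Meis1 and deleted minus Hoxa9-Meis1, and the fit over all probe sets called 2779, 4064 and 6770 probe sets. Leaving out 1 array gave 645 to 1204, 681 to 1799 and 1540 to 2710 genes, with 0 to 3 members lower and 0 to 2 higher for floxed minus Hoxa9-Meis1, 2 to 3 lower for deleted minus Hoxa9-Meis1 and 1 lower for deleted minus floxed. Other pathway genes then numbered 3 to 6 lower and 1 to 6 higher, 2 to 9 lower and 5 to 10 higher, and 4 to 10 lower and 2 to 9 higher in the same order of comparisons.

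For deleted minus floxed, other pathway genes numbered 3 lower and 3 higher with probe set means per gene, 2 higher with the dim filter, 3 higher with centred arrays and 2 higher with array weights. Without both deleted replicate 6 and floxed replicate 5 (chosen after the data were seen) 498 genes and 3 lower pathway genes were called. For floxed minus Hoxa9-Meis1, lower members numbered 0 with only those groups in the fit, 2 with array weights (2543 genes called) and 0 without either pair of arrays (deleted 6 with floxed 5, or with floxed 6, also chosen later), where lower pathway genes numbered 4. Higher members numbered 1 with probe set means and 2 without deleted 6 and floxed 6. For deleted minus Hoxa9-Meis1, 1 member was higher with only those groups in the fit and 1 without deleted 6 and floxed 6, where 4 pathway genes were lower; with array weights 11 were higher.

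The MLL-AF9 groups share replicate numbers, but deviations of same-numbered arrays correlated at 0.033, 0.053 and 0.0086 across genes, and 0 of 3 deleted arrays correlated best with its own number, so the numbers were not taken as pairing. With the replicate number as a block 599 genes were called, 2 pathway genes rose, and Spred1 still fell (-2.45, limma adjusted p = 0.0224), while the Hmga2 call ended (limma adjusted p = 0.0736).

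Small differences that never passed changed sign. For deleted minus floxed, leaving out 1 array gave -0.019 to 0.26 for Dusp4 and -0.082 to 0.80 for Dusp6 (lowest without floxed replicate 6), and Spry2 at 0.028 with array weights and 0.14 without deleted 6 and floxed 5. For floxed minus Hoxa9-Meis1, Spry4 was at 0.11 with probe set means, 0.025 after quantile normalization, 0.011 when centred, 0.011 with array weights, 0.092 without floxed 5 (with or without deleted 6), 0.054 without floxed 6 (with or without deleted 6), and 0.039 and 0.0016 without Hoxa9-Meis1 replicates 1 and 3, the lowest without 1 array being -0.18. Dusp6 was at 0.18 without Hoxa9-Meis1 replicate 1 (from -0.70), Spred1 at -0.12 with probe set means, and Etv4 at 0.063 without floxed 5 (with or without deleted 6) and 0.16 without Hoxa9-Meis1 replicate 1 (from -0.13). For deleted minus Hoxa9-Meis1, Dusp6 was at 0.054 with array weights, 0.42 without deleted 6 (alone or with floxed 5 or 6) and 0.47 without Hoxa9-Meis1 replicate 1 (from -0.41), and Etv5 at -0.064 without deleted 5 (up to 0.27). The causes were not tested. Values near background limit what Rras2, the dimmest Spred1 probe sets, 1428142_at of Etv5 and Hmga2 (in deleted replicate 4) can show.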

Other observations

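The genes next to Spred1 on chromosome 2, named after their values were seen, did not pass with it. Of the 3 represented genes on either side, Meis2, Tmco5, D330050G23Rik, Fam98b, Rasgrp1 and 4930412B13Rik, 0 were called for deleted minus floxed in limma, and 1, Fam98b, had an unadjusted p under 0.05 (0.00976). Fam98b, the nearest measured gene after Spred1, was at 11.90, 12.05 and 11.72 in floxed and at 11.61, 11.53 and 11.30 in deleted leukemias, without overlap (difference -0.41, SE 0.13, limma adjusted p = 0.0921). Rasgrp1, which encodes a Ras activator best known from lymphocytes, was at 6.32, 6.32 and 6.40 in floxed and 6.83, 6.31 and 6.91 in deleted leukemias (0.33, limma adjusted p = 0.405). Meis2, a relative of Meis1, was dim at 5.14 to 5.96 in deleted and 5.19 to 5.55 in floxed leukemias.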
